A study of Mus musculus with 25 samples.

Results

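The miR-148 and miR-152 family was followed in small extracellular vesicles of mouse liver from the first postnatal week to 14 months of age. Its members were taken by name from the table of miRNA counts: mmu-miR-148a-3p, mmu-miR-148b-3p and mmu-miR-152-3p, which share 1 seed, and mmu-miR-148a-5p, the opposite arm of the miR-148a precursor. They are 4 of the 1493 entries in the table, and all 4 were abundant enough to be tested. The mice were wild-type C57BL/6J, with 5 mice at each of 1 week, 6 weeks, 6 months, 12 months and 14 months and 1 library a mouse. Both sexes were represented equally according to the labels, which do not give the sex of each mouse. Livers were frozen, dissociated with a kit made for human tumours and ultracentrifuged to obtain the vesicles, so that the preparation holds vesicles of every cell type in the dissociated organ. The batch field of the labels repeats the age, so age and the handling of each age group cannot be told apart. In such bulk preparations a lower level can mean fewer vesicles of a cell type or less of the miRNA in each, and these cannot be told apart either.

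A miRNA guides the Argonaute protein to messenger RNAs that pair with its seed, the bases near its 5′ end, and lowers the output of those messages. The family is known for repressing DNA methyltransferases, and miR-148a in particular is among the most abundant miRNAs of hepatocytes, where in mice it represses the low-density lipoprotein receptor and the cholesterol exporter ABCA1. Each precursor yields a 5p and a 3p arm, of which 1 usually is retained by Argonaute and the other is degraded. Vesicles carry a selection of the miRNAs of the cells that release them.

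The mature sequences are shown because the 3 guide strands share their seed and differ at few bases, so that reads of one can resemble another. They are the RefSeq sequences of the GRCm38.p6 build, written 5′ to 3′, with the seed (bases 2 to 8) in capitals.
miR-148a-3p: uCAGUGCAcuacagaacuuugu
miR-148b-3p: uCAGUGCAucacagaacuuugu
miR-152-3p: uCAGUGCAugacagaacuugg
miR-148a-5p: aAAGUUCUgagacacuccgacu
Of the 1679 mature mouse miRNAs in the reference, 3 have the seed CAGUGCA, and they are the 3 guide strands above. Counting positions from 1 at the 5′ end, miR-148b-3p differs from miR-148a-3p by C9U and U10C and is identical to it at 20 of 22 positions (90.9%). miR-152-3p differs from miR-148a-3p by C9U, U10G and U20G and is identical at 18 of 21 positions (85.7%). miR-152-3p differs from miR-148b-3p by C10G and U20G, at 19 of 21 identical positions (90.5%). All of these differences lie outside the seed. How reads that fit more than 1 of them were assigned is not given in the sources used here. No other entry had counts within 0.3 log2 units of a member's in all 25 libraries.

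The 3 precursors come from separate loci of GRCm38. Mir148a is at chr6:51269812-51269910 on the minus strand, between genes, with the nearest coding gene, Nfe2l3, 162760 bases away. Mir152 is at chr11:96850393-96850465 on the plus strand, in an intron of Copz2. Mir148b is at chr15:103285125-103285221 on the plus strand, in an intron of Copz1. Copz1 and Copz2 both encode zeta subunits of the coatomer coat of transport vesicles. The mature miR-148a-3p lies at chr6:51269829-51269850, miR-148a-5p at chr6:51269867-51269888, miR-148b-3p at chr15:103285185-103285206 and miR-152-3p at chr11:96850439-96850459.

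Library totals ran between 641579 and 6888928 counts. Their medians were 2604728 in 1-week, 1012376 in 6-week, 1141961 in 6-month, 2461193 in 12-month and 2505655 in 14-month mice, so the 6-week and 6-month libraries were the shallowest. The deepest was that of the 1-week mouse 27. Hepatocyte markers (both arms of miR-122, miR-192-5p and miR-194-5p) held between 59.3% and 66.6% of counts in each adult library and between 57.0% and 69.4% in the 1-week libraries, so the defining miRNAs of liver were abundant at every age. In 6-week libraries against 1-week libraries, 4 of 4 hepatocyte markers rose, 4 of 5 erythroid, 4 of 5 leukocyte, 5 of 5 epithelial and 2 of 2 tested muscle markers fell, where 35.0% of all tested entries rose and 36.8% fell. Their levels are given beside the family's changes below.

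Within every library miR-148a-3p was the second most abundant named miRNA. It took between 5.01% and 8.06% of counts and summed to 3295212 counts over the 25 libraries. miR-152-3p summed to 258549 counts and took between 0.211% and 0.944% of a library, at ranks between 9 and 30. miR-148b-3p summed to 121251 counts and took between 0.145% and 0.419%, at ranks between 22 and 41. miR-148a-5p was rare, with between 1 and 29 counts a library, 263 in all and ranks between 188 and 458. Together the 3 guide strands made up 7.52% ± 1.19 of a 1-week library, 6.80% ± 1.02 of a 6-week, 6.46% ± 0.623 of a 6-month, 7.06% ± 1.01 of a 12-month and 6.17% ± 0.187 of a 14-month library (SD, n = 5 each). Their summed share thus moved little beside the shifts among its members.

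**Figure D1:**
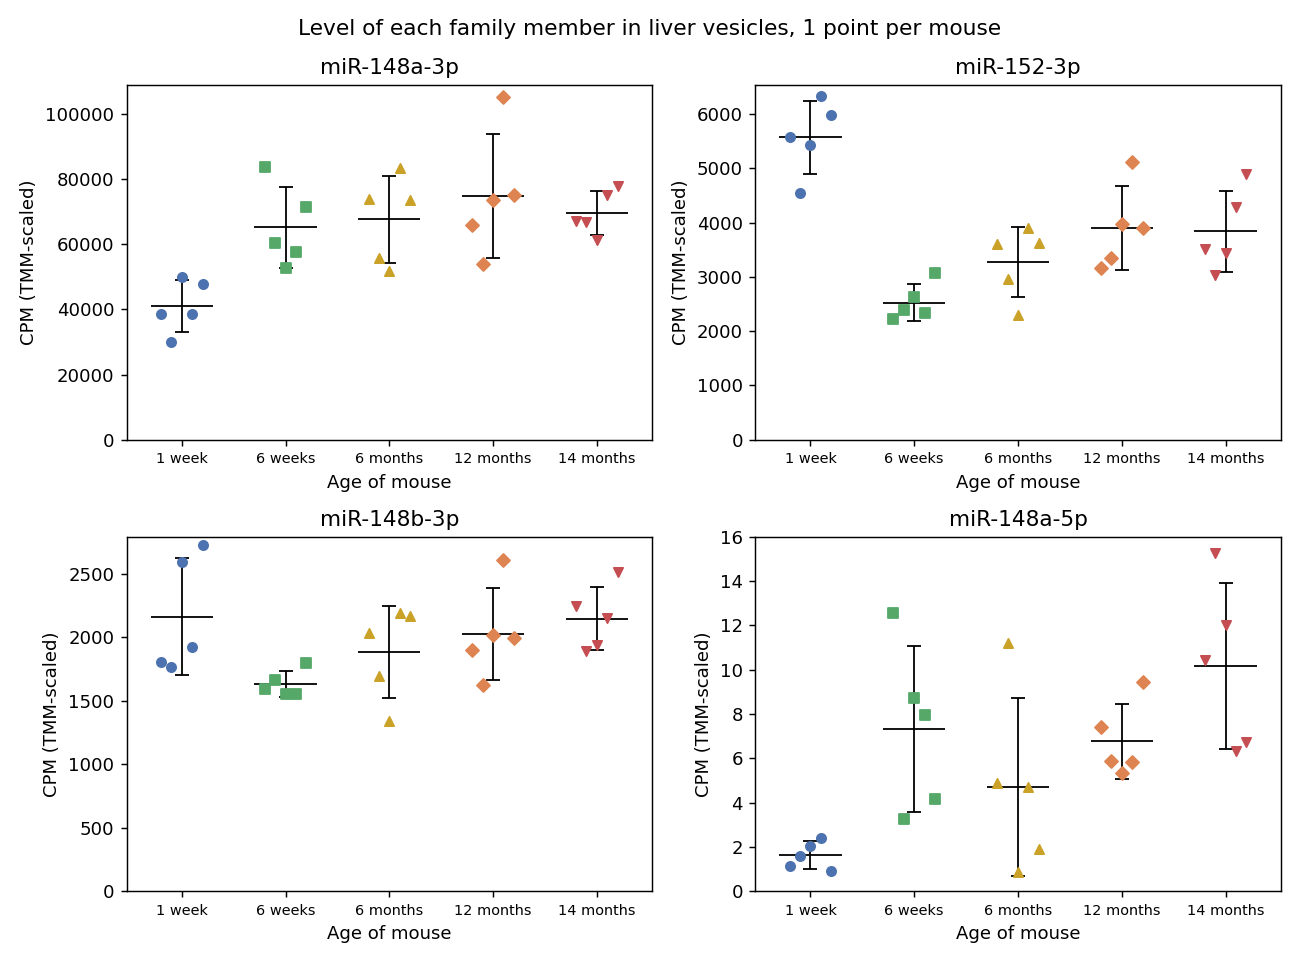
Level of each member in CPM scaled by TMM (y axis, a separate range in each panel) in the 25 libraries by age. Points are single mice, and bars give the mean ± SD of 5 mice. miR-152-3p is highest at 1 week, miR-148a-3p and miR-148a-5p are lowest there, and the adult ages lie close together.

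The comparison of 6 weeks with 1 week asks what separates the young adult from the first postnatal week. The vesicle family changed in opposite directions: miR-148a-3p and miR-148a-5p rose, and miR-152-3p and miR-148b-3p fell. All 4 members passed the test, in a comparison where 71.9% of the 391 tested entries passed it, 35.0% upward and 36.8% downward. A call on its own therefore says little about the family, and the sizes and directions below carry the description. Levels are counts per 1000000 (CPM) after TMM scaling, a normalisation that sets the bulk of entries level between libraries, and tests are edgeR's quasi-likelihood test with Benjamini-Hochberg adjustment over all tested entries.

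miR-152-3p, a guide strand known to repress the maintenance DNA methyltransferase DNMT1, showed the largest fall. Its level was 2232, 2385, 2623, 2325 and 3064 CPM in the 6-week mice 6, 7, 8, 9 and 10. It was 5581, 4548, 5429, 6330 and 5990 CPM in the 1-week mice 1, 3, 4, 5 and 27. Every 6-week library lay below every 1-week library, as 28.6% of tested entries did. The mean was 2526 ± 334 CPM at 6 weeks and 5575 ± 674 CPM at 1 week (SD, n = 5 each), and the log2 fold change was -1.14 ± 0.16 (SE; adjusted p = 6.55e-07).

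miR-148a-3p, the hepatocyte-rich guide strand, had 83798, 60287, 52609, 57618 and 71424 CPM in the 6-week mice. The 1-week mice had 38469, 30051, 49924, 38564 and 47790 CPM. The 6-week libraries lay above all 1-week libraries, as 28.6% of tested entries did in that direction. The mean was 65147 ± 12498 CPM at 6 weeks and 40960 ± 8030 CPM at 1 week (SD, n = 5 each), a log2 fold change of 0.67 ± 0.17 (SE; adjusted p = 0.00100). This rise depended on the scaling. In the same edgeR test, DESeq2 size factors gave 0.21 (adjusted p = 0.245) and scaling by library total only gave 0.015 (adjusted p = 0.912). Library totals that leave out miR-122-5p gave -0.10 (adjusted p = 0.400), so the direction turned there.

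The scalings set the zero of every entry differently. The median log2 fold change of all tested entries in 6 weeks against 1 week was 0.12 with TMM, -0.35 with DESeq2 size factors, -0.54 with library totals and -0.66 without miR-122-5p. The calls divided into 137 higher and 144 lower with TMM, and into 88 higher and 178 lower with library totals. Measured against that median, miR-148a-3p was higher by 0.55 to 0.56 log2 units under all 4 scalings and miR-148a-5p by 2.04 to 2.09. In the same measure miR-148b-3p lay at -0.52 to -0.51 and miR-152-3p at -1.26 to -1.25. Such agreement is given by the measure, since a change of scaling moves all entries and their median nearly alike. With log2 library total as a covariate the distances from the median changed. There miR-148a-3p lay at 1.11, miR-148a-5p at 1.88, miR-148b-3p at 0.018 and miR-152-3p at -0.63. The call of miR-148a-3p did not hold under all 4 scalings.

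miR-148b-3p, the least abundant guide strand, had 1595, 1665, 1553, 1557 and 1799 CPM in the 6-week mice and 1807, 1763, 2593, 1925 and 2723 CPM in the 1-week mice. The groups overlapped in these TMM-scaled levels, since the 6-week mouse 10 lay above the 1-week mouse 3. As a percentage of all counts they did not overlap, with 0.151% to 0.174% at 6 weeks and 0.250% to 0.419% at 1 week. The mean was 1634 ± 103 CPM at 6 weeks and 2162 ± 459 CPM at 1 week (SD, n = 5 each), a log2 fold change of -0.40 ± 0.15 (SE; adjusted p = 0.0210). Of the 4 members' calls, this one was lost when 1 library was left out: it was -0.32 (adjusted p = 0.0700) without the 1-week mouse 4, -0.31 (adjusted p = 0.0695) without the 1-week mouse 27 and -0.33 (adjusted p = 0.0601) without the 12-month mouse 18. With log2 library total as a covariate it was -0.080 (adjusted p = 0.735). Under the other scalings the fall was larger in the same edgeR test. It was -0.86 with DESeq2 size factors (adjusted p = 8.83e-06) and -1.06 with library totals alone (adjusted p = 5.94e-08). Without miR-122-5p in the totals it was -1.17 (adjusted p = 3.79e-10). The median of all tested entries also lay lower under these scalings, as given above.

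miR-148a-5p, the rare arm, had 12.6, 3.27, 8.72, 7.97 and 4.17 CPM in the 6-week mice and 1.13, 1.61, 2.06, 2.43 and 0.943 CPM in the 1-week mice. In these TMM-scaled levels all 6-week libraries were higher than all 1-week libraries, as they were for 28.6% of tested entries. As a percentage of all counts the ages overlapped, since the 6-week mouse 7 (0.000312%) lay just below the 1-week mouse 5 (0.000316%). The 6-week mouse 7 had 2 counts, and its 3.27 CPM lay below the 4.90 CPM that 3 counts give in that library. Each 6-week value rests on few counts, 36 over the 5 libraries. The mean was 7.34 ± 3.75 CPM at 6 weeks and 1.63 ± 0.621 CPM at 1 week (SD, n = 5 each), a log2 fold change of 2.16 ± 0.49 (SE; adjusted p = 0.000312).

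**Figure D2:**
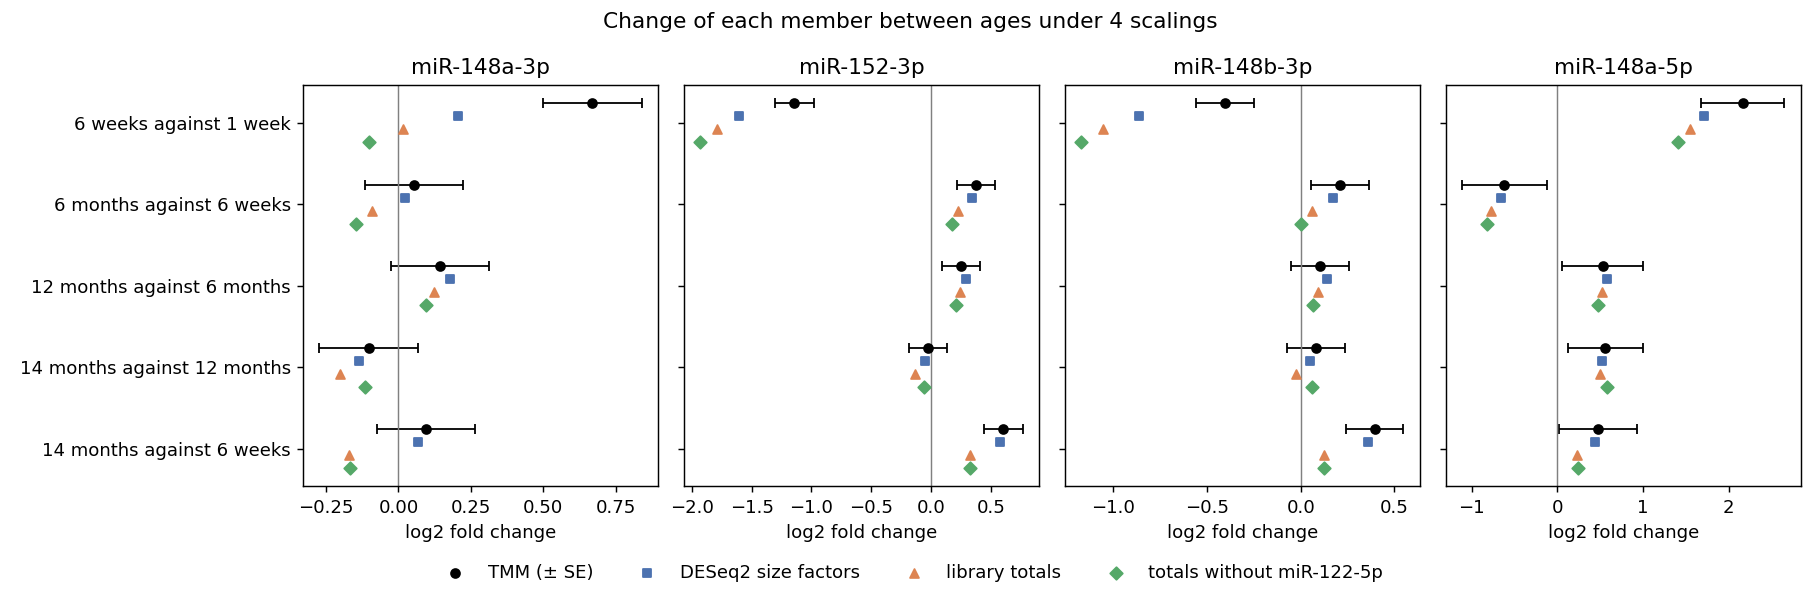
Log2 fold change (x axis, later age over earlier age, a separate range in each panel) of the 4 members in 5 age comparisons under 4 scalings, with a bar of ± SE on the TMM value. In 6 weeks against 1 week each scaling shifts all members the same way, which carries miR-148a-3p from 0.67 across 0, while miR-152-3p and miR-148b-3p stay negative and miR-148a-5p stays positive under all 4.

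Markers of cell types moved in the same comparison. The summed level of the 4 hepatocyte markers ran between 611001 and 690543 CPM at 6 weeks and between 370116 and 533875 CPM at 1 week. That of the 5 leukocyte markers ran between 2163 and 2839 CPM at 6 weeks and between 4966 and 5592 CPM at 1 week. The 5 erythroid markers summed to between 180.1 and 514.5 CPM at 6 weeks and between 416.1 and 920.6 CPM at 1 week, and the 5 epithelial markers to between 354.5 and 463.1 CPM at 6 weeks and between 846.4 and 1368 CPM at 1 week. The endothelial sum ran between 44651 and 53652 CPM at 6 weeks and between 21083 and 38924 CPM at 1 week. That of the 2 tested muscle markers ran between 0 and 5.36 CPM at 6 weeks and between 56.8 and 1108 CPM at 1 week. In these TMM-scaled levels only the erythroid sums overlapped between the ages. The hepatocyte, leukocyte, epithelial, stellate, endothelial and muscle sums did not. Of single tested entries, 28.6% lay wholly higher at 6 weeks and 28.6% wholly lower. As a percentage of all counts, however, the hepatocyte markers held 59.3% to 65.9% at 6 weeks and 57.0% to 69.4% at 1 week, so the 6-week range lay inside the 1-week range. The 5 stellate markers, of which 2 rose, summed to between 6300 and 7672 CPM at 6 weeks and between 3880 and 5992 CPM at 1 week, and 1 of the 2 endothelial markers rose. With library totals alone, in contrast, 3 of the 5 stellate markers and 1 of the 2 endothelial markers fell. Under that scaling 178 of all 391 tested entries fell. No marker was at 0 over the 5 libraries of any age. The part of these markers in the family's changes was not tested.

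The relation among the members does not depend on library scaling, because both values come from 1 library. Per 100 counts of miR-148a-3p, miR-152-3p had 3.99 ± 0.843 counts at 6 weeks and 13.9 ± 2.19 at 1 week (SD, n = 5 each). The ratio was 0.284-fold that of 1 week, a difference of -1.82 in log2 ratio. miR-148b-3p had 2.57 ± 0.402 counts per 100 of miR-148a-3p at 6 weeks and 5.29 ± 0.487 at 1 week, a difference of -1.05. Per 100 counts of miR-148b-3p, miR-152-3p had 154.4 ± 14.4 counts at 6 weeks and 265.0 ± 52.8 at 1 week, a difference of -0.76. In these 3 ratios the libraries of the 2 ages did not overlap. Of single tested entries 28.6% lay wholly higher and 28.6% wholly lower between these ages, and no such share was computed for ratios of entries. Each gave p = 0.00794 in a two-sided exact permutation test, the smallest p that 5 against 5 libraries allow, and an adjusted p of 0.0529 over the 20 ratio tests. None of the 20 passed an adjusted threshold of 0.05.

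As shares of the 3 guide strands, miR-152-3p held 11.6% ± 1.64 in 1-week, 3.73% ± 0.754 in 6-week, 4.51% ± 0.274 in 6-month, 4.89% ± 0.487 in 12-month and 5.05% ± 0.565 in 14-month libraries. miR-148b-3p held 4.44% ± 0.409, 2.41% ± 0.354, 2.60% ± 0.172, 2.55% ± 0.174 and 2.84% ± 0.200 at the same ages. miR-148a-3p held the rest, 83.9% ± 1.54, 93.9% ± 1.09, 92.9% ± 0.438, 92.6% ± 0.604 and 92.1% ± 0.661 (SD, n = 5 at each age). The seed CAGUGCA was thus carried mainly by miR-148a-3p at every age, and miR-152-3p had its largest portion at 1 week.

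**Figure D3:**
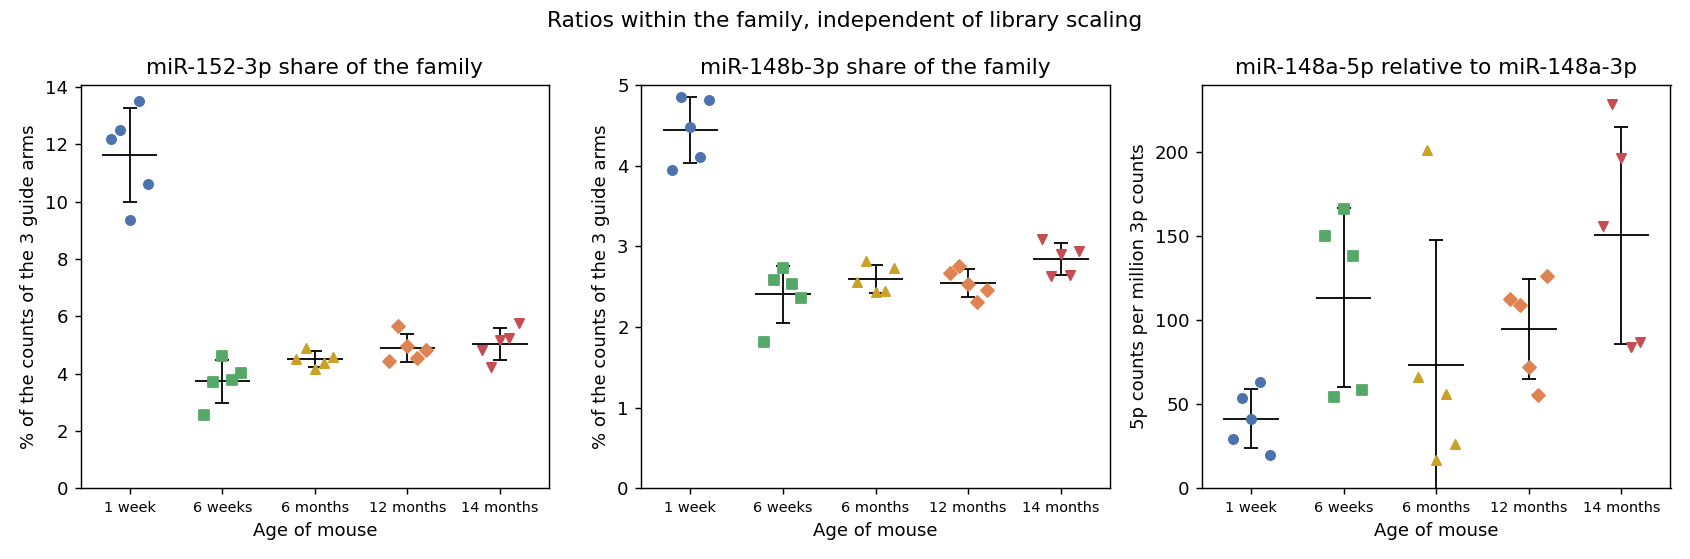
Composition of the family by age, as miR-152-3p and miR-148b-3p in percent of the counts of the 3 guide strands (left and middle) and as miR-148a-5p counts per 1000000 counts of miR-148a-3p (right), with single mice as points and the mean ± SD of 5 mice. The shares of miR-152-3p and miR-148b-3p separate the 1-week libraries from the adult ones, and in the right panel the lower end of the 6-month SD bar lies below 0 and is not drawn.

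The next comparisons ask whether the family goes on changing through adult life. The F test over the 5 ages, in which 75.4% of tested entries passed, called miR-152-3p (adjusted p = 9.39e-06), miR-148a-5p (adjusted p = 0.000262) and miR-148a-3p (adjusted p = 0.000655) but not miR-148b-3p (adjusted p = 0.105). The last 2 turned with the scaling: with DESeq2 size factors, library totals and library totals without miR-122-5p, the adjusted p of miR-148a-3p was 0.212, 0.512 and 0.118, and that of miR-148b-3p was 6.64e-05, 2.44e-08 and 2.18e-11. DESeq2's own test gave 0.248 for miR-148a-3p and 3.62e-08 for miR-148b-3p. Over the 4 adult ages alone, in which 2.56% of entries passed, edgeR's F test called no member. There miR-152-3p came closest (adjusted p = 0.0627), followed by miR-148b-3p (0.407), miR-148a-5p (0.511) and miR-148a-3p (0.875). With DESeq2 in place of edgeR the adjusted p of miR-152-3p over the adult ages was 0.00952, and leaving out single libraries moved it between 0.0260 and 0.169. It fell below the threshold without the 1-week mouse 27, the 6-week mouse 10, the 6-month mice 13 or 15, the 12-month mice 16 or 17 or the 14-month mice 21 or 22.

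Across the widest adult span, 14 months against 6 weeks, miR-152-3p rose, and it alone of the 4 members passed the test, where 3.84% of tested entries passed and 3.32% were higher. It had 3509, 3042, 3445, 4284 and 4903 CPM in the 14-month mice 21, 22, 23, 24 and 25, against 2232, 2385, 2623, 2325 and 3064 CPM in the 6-week mice 6 to 10. The 14-month mouse 22 lay just below the 6-week mouse 10, and the other 4 of the 14-month libraries lay above all of 6 weeks. The mean was 3836 ± 747 CPM at 14 months and 2526 ± 334 CPM at 6 weeks (SD, n = 5 each), a log2 fold change of 0.60 ± 0.16 (SE; edgeR's quasi-likelihood test, adjusted p = 0.0329).

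That call was not firm. It was lost when the 6-week mouse 6 (0.56, adjusted p = 0.0777) or 7 (0.58, adjusted p = 0.0524), or the 14-month mouse 23 (0.67, adjusted p = 0.0717), 24 (0.58, adjusted p = 0.116) or 25 (0.54, adjusted p = 0.155) was left out. With library totals alone the change was 0.32 (adjusted p = 0.121), and with log2 library total as a covariate 0.28 (adjusted p = 0.562). Relative to the median of all tested entries it was 0.63 to 0.65 under the 4 scalings, which move all entries nearly alike. With the covariate it was 0.27 in the same measure.

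At 12 months miR-152-3p had 3165, 3347, 3970, 5124 and 3900 CPM in mice 16 to 20. All of these lay above the 6-week libraries, as 5.63% of tested entries did. The mean was 3901 ± 766 CPM at 12 months and 2526 ± 334 CPM at 6 weeks (SD, n = 5 each), and in 12 months against 6 weeks miR-152-3p rose by 0.63 ± 0.16 log2 units (SE; adjusted p = 0.0152). It was the only member among the 5.63% of entries called, with 3.84% of tested entries higher. The value was 0.56 (adjusted p = 0.0760) without the 12-month mouse 19 and 0.37 (adjusted p = 0.189) with log2 library total as a covariate. At 6 months it had 3603, 2959, 2304, 3907 and 3620 CPM in mice 11 to 15, with a mean of 3279 ± 646 CPM. That age overlapped 6 weeks, and its log2 fold change against 6 weeks was 0.38 ± 0.16 (adjusted p = 0.417).

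The other members had smaller or noisier differences across adult ages. miR-148b-3p averaged 1634 ± 103 CPM in 6-week, 1888 ± 363 CPM in 6-month, 2029 ± 361 CPM in 12-month and 2148 ± 251 CPM in 14-month mice, and its log2 fold change in 14 months against 6 weeks was 0.39 ± 0.15 (adjusted p = 0.144). All 14-month libraries, at 1890 to 2511 CPM, lay above the 6-week libraries, at 1553 to 1799 CPM, as 5.88% of tested entries did. miR-148a-3p averaged 65147 ± 12498 CPM in 6-week, 67636 ± 13440 CPM in 6-month, 74775 ± 18941 CPM in 12-month and 69625 ± 6734 CPM in 14-month mice. Its log2 fold change in 14 months against 6 weeks was 0.10 ± 0.17 (adjusted p = 0.732). The 12-month group was wide because of mouse 19, at 105158 CPM, with its other mice between 53971 and 75075 CPM.

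miR-148a-5p averaged 7.34 ± 3.75 CPM in 6-week, 4.72 ± 4.01 CPM in 6-month, 6.78 ± 1.69 CPM in 12-month and 10.2 ± 3.74 CPM in 14-month mice. In 14 months against 6 weeks its log2 fold change was 0.47 ± 0.45 (adjusted p = 0.542). The 6-month libraries ran between 0.877 and 11.2 CPM, which covers the whole 6-week and 12-month range apart from the 6-week mouse 6.

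Between consecutive adult ages no member was called. In 6 months against 6 weeks 1.79% of tested entries passed. In 12 months against 6 months and in 14 months against 12 months 0 of 391 entries (0.0%) passed edgeR's quasi-likelihood test, with 28 and 8 entries at an unadjusted p under 0.05, and DESeq2 and limma-voom also called 0 entries in each. The members' log2 fold changes in 12 months against 6 months were 0.14 for miR-148a-3p, 0.53 for miR-148a-5p, 0.10 for miR-148b-3p and 0.25 for miR-152-3p, with adjusted p between 0.745 and 0.908. In 14 months against 12 months they lay between -0.10 and 0.56, all with an adjusted p of 1. The standard errors were 0.15 to 0.17 log2 units for the guide strands and 0.44 to 0.47 for miR-148a-5p in these 2 comparisons.

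Ordered by mean level, miR-152-3p was highest at 1 week, then at 12 months, 14 months, 6 months and 6 weeks. The step between its first pair in that order passed the test (12 months against 1 week, -0.51, adjusted p = 0.00549). It was lost without the 1-week mouse 5 (-0.35, adjusted p = 0.0963) or the 12-month mouse 18 (-0.37, adjusted p = 0.0833) or 20 (-0.43, adjusted p = 0.0528). The other neighbours did not pass, with adjusted p of 1 for 14 against 12 months, 0.747 for 14 against 6 months and 0.417 for 6 months against 6 weeks. miR-148a-3p was highest at 12 months, then at 14 and 6 months, 6 weeks and 1 week, and only its last neighbours, 6 weeks and 1 week, passed. miR-148a-5p was highest at 14 months, then at 6 weeks, 12 months, 6 months and 1 week, and its last neighbours passed (6 months against 1 week, 1.54, adjusted p = 0.00655), a call that was lost without the 6-month mouse 12 (0.99, adjusted p = 0.0763). miR-148b-3p was highest at 1 week, followed by 14, 12 and 6 months and lastly 6 weeks. No neighbours in that order passed under TMM.

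Set against 1 week, 3 members passed at every later age under TMM. miR-148a-3p was higher by 0.72 at 6 months, 0.87 at 12 months and 0.77 at 14 months (adjusted p = 0.000470, 6.43e-05 and 0.000267), but with library totals alone the sign was negative at 6 and 14 months, and with library totals that leave out miR-122-5p at all 3 ages. miR-148a-5p was higher by 1.54, 2.07 and 2.63 at those ages (adjusted p = 0.00655, 0.000291 and 1.38e-05). miR-152-3p changed by -0.77, -0.51 and -0.54 (adjusted p = 0.000134, 0.00549 and 0.00384). Besides the losses given above for 12 months, its call at 14 months was lost without the 1-week mouse 5 (-0.39, adjusted p = 0.0613). Under TMM miR-148b-3p did not pass at any of the 3 ages, with -0.20, -0.09 and -0.01 (adjusted p = 0.253, 0.583 and 0.957). Its mean share of all counts, however, was 0.335% at 1 week and 0.168%, 0.179% and 0.176% at those ages. Of all tested entries 74.7% passed at 6 months, 71.6% at 12 months and 72.9% at 14 months, and these comparisons share the 1-week libraries.

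The opposite arms of the 3 precursors were compared as counts of the 5p arm per 1000000 counts of both arms, pooled over an age. For miR-148a-5p this was 33.4 in 1-week mice (exact 95% interval 23.5 to 46.0), 107 in 6-week (75.0 to 148.1), 67.4 in 6-month (45.1 to 96.7), 91.4 in 12-month (70.7 to 116) and 136 in 14-month mice (110.2 to 167). These intervals cover counting error only, not the spread between mice. The interval of 1 week lies below those of 6 weeks, 12 months and 14 months and overlaps that of 6 months. In log2 ratio of the arms within a library, 6 weeks and 1 week differed by 1.45 (two-sided exact permutation test, p = 0.0159, adjusted p = 0.0635).

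The precursors of the other guide strands gave a larger share of their 5p arms, whose sequences are shown for comparison with miR-148a-5p, seeds in capitals.
miR-148b-5p: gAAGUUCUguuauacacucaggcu
miR-152-5p: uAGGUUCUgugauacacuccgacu
miR-148b-5p has the same seed as miR-148a-5p, and the seed of miR-152-5p is a different one. Per 1000000 counts of both arms, miR-148b-5p had 1469 in 1-week, 6625 in 6-week, 5270 in 6-month, 6524 in 12-month and 5057 in 14-month mice. miR-152-5p had 435, 2284, 1493, 1325 and 1263 at the same ages. Both also had their lowest share at 1 week. In TMM-scaled CPM miR-148b-5p rose by 1.35 ± 0.58 in 6 weeks against 1 week (SE; edgeR's quasi-likelihood test, adjusted p = 0.0401). In the same test miR-152-5p rose by 1.40 ± 0.43 (adjusted p = 0.00542), while the 3p arms of both fell. These rises rest on few counts, 57 and 31 over the 6-week libraries. Per 1000000 of all counts, pooled over an age, miR-152-5p had 3.82 at 1 week and 5.92 at 6 weeks. Its intervals for counting error overlapped (2.94 to 4.88 and 4.02 to 8.41). Those of miR-148b-5p, at 5.26 and 10.9, did not (4.22 to 6.48 and 8.25 to 14.1). Neither arm passed in any comparison between adult ages.

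The value of miR-148b-5p at 1 week rests partly on mouse 27. In that library, the deepest, the arm had 0 counts beside 28878 counts of miR-148b-3p, which allows up to 104 per 1000000 of the 3p arm. The other 1-week mice had 11 to 35 counts, or 1735 to 4394 per 1000000 of the 3p arm. Per 1000000 of all counts these mice had 4.34 to 13.4, which overlaps the 7.92 to 16.8 of the 6-week mice. In the library of mouse 27, 3 entries were at 0 while above 0 in the other 24 libraries. The named ones were miR-148b-5p and miR-26a-2-3p, and other libraries had 0 to 5 such entries.

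The adult libraries differed in depth, and under TMM the levels of the 3 guide strands correlated with it. Over the 20 adult libraries the correlation of log2 CPM with log2 library total was highest for miR-152-3p (Pearson r = 0.82, Spearman rho = 0.81, permutation test with 100000 resamples, adjusted p of r = 8.00e-05). It was r = 0.67 and rho = 0.68 for miR-148b-3p (permutation test, adjusted p = 0.00266), r = 0.48 and rho = 0.53 for miR-148a-3p (adjusted p = 0.0440) and r = 0.17 and rho = 0.07 for miR-148a-5p (adjusted p = 0.482), adjusted over the 4 relations. Without the 2 libraries farthest from the median depth, r was 0.79, 0.64, 0.44 and 0.11 in that order of members. Within ages, as deviations from the age means, r was 0.71, 0.48, 0.45 and -0.04. With library totals in place of TMM, r was 0.72 for miR-152-3p (permutation test, adjusted p = 0.00184), 0.35 for miR-148b-3p (0.262), 0.02 for miR-148a-3p (0.972) and -0.01 for miR-148a-5p (0.972). The 6-week libraries were both the shallowest and the lowest in miR-152-3p among adults, and the part of depth in that difference was tested only as the covariate given above.

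**Figure D4:**
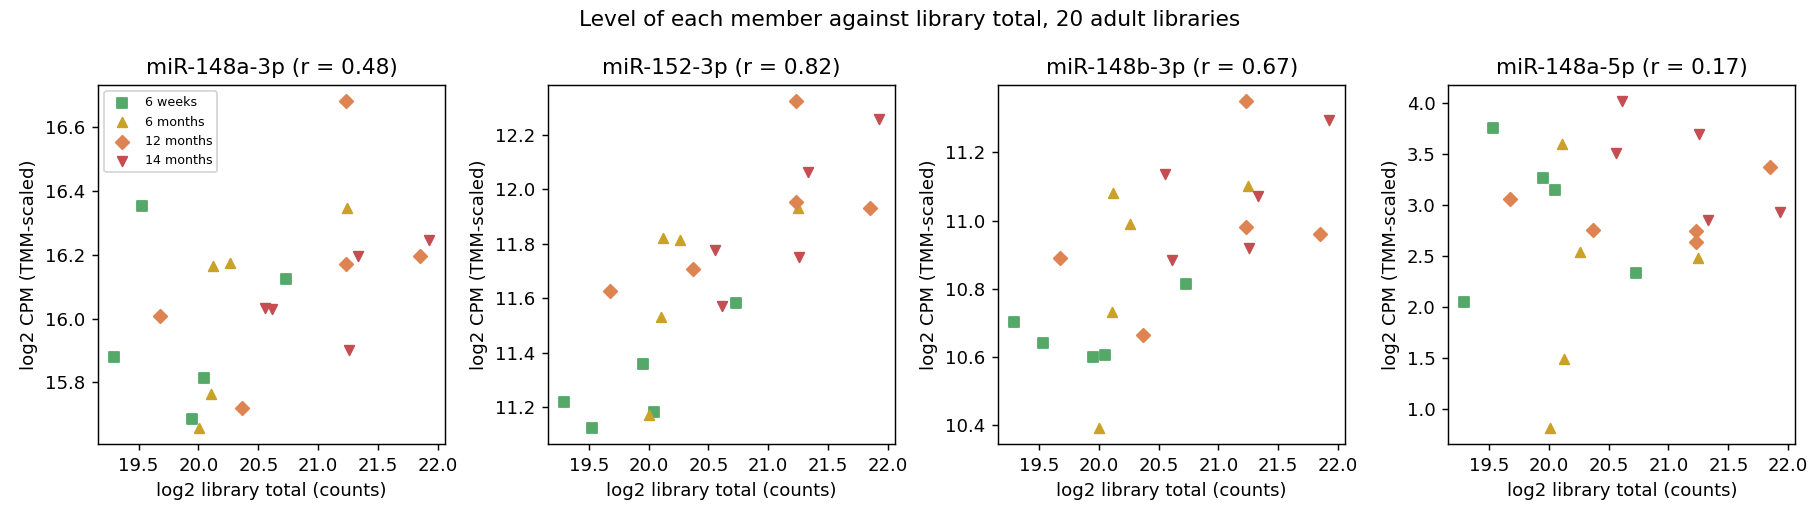
Log2 CPM of each member (y axis) against log2 library total (x axis) in the 20 adult libraries, coloured by age. miR-152-3p rises with depth (r = 0.82), miR-148b-3p and miR-148a-3p less so (r = 0.67 and 0.48), and miR-148a-5p shows no such slope (r = 0.17).

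Among themselves the guide strands varied together across the 20 adult libraries, as a description of libraries that share their scaling and depth. The correlation of log2 CPM was r = 0.91 between miR-148b-3p and miR-152-3p, 0.77 between miR-148a-3p and miR-148b-3p and 0.64 between miR-148a-3p and miR-152-3p. miR-148a-5p had r of at most 0.13 with the guide strands, its own precursor's included (0.08 with miR-148a-3p). Of 139 other entries with a mean of at least 50 CPM, those most like miR-152-3p were miR-26b-5p (r = 0.96), miR-29c-3p (0.89) and miR-29a-3p (0.88), the last 2 of which have almost the same sequence and counts. Those most like miR-148b-3p were miR-26b-5p (0.93), let-7b-5p (0.91) and let-7c-5p (0.90). Nearest to miR-148a-3p were let-7c-5p, miR-26a-5p and let-7b-5p (0.76 each), and nearest to miR-148a-5p miR-183-5p (0.59), miR-182-5p (0.58) and miR-151-5p (0.55). The median r over all 139 was 0.38, 0.33, 0.23 and 0.01 for these 4 members in turn. The entries nearest to the guide strands followed depth themselves, with r of 0.67 to 0.90 with library total.

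Other miRNAs with related roles were set beside the family. Of 8 miRNAs reported to target DNA methyltransferases, mostly in human cells, 7 rose in 6 weeks against 1 week and 1 did not pass, where 35.0% of all tested entries rose, with a median log2 fold change of 1.00 against 0.12 for all tested entries. The largest were miR-29b-3p (3.88 ± 0.27), miR-29c-3p (3.58 ± 0.33), miR-29a-3p (3.58 ± 0.33) and miR-101a-3p (1.04 ± 0.14). With library totals alone 4 of the 8 rose and none fell, where 88 of 391 tested entries rose and 178 fell. In 14 months against 6 weeks the 3 miR-29 entries rose (miR-29b-3p by 1.82 ± 0.25, miR-29c-3p by 1.44 ± 0.30, miR-29a-3p by 1.44 ± 0.30) and the other 5 did not pass, with a median of 0.22 against -0.04. Of all tested entries 3.84% passed there and 3.32% were higher.

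Of 13 miRNAs rich in hepatocytes, 11 were tested. In 6 weeks against 1 week 8 of them rose, among them miR-192-3p (3.76 ± 0.31), miR-378a-3p (2.30 ± 0.20), miR-192-5p (2.27 ± 0.21) and miR-194-5p (2.21 ± 0.12), while miR-455-5p fell and 2 did not pass, where 35.0% of all tested entries rose and 36.8% fell. The median was 1.37 against 0.12, above the 0.67 of miR-148a-3p. Scaled by library total only, 7 rose and 1 fell, where 88 of 391 tested entries rose and 178 fell. In 14 months against 6 weeks miR-194-5p rose (0.45 ± 0.12) and the other 10 did not pass, where 3.84% of all tested entries passed and 3.32% were higher. Under each of the other 3 scalings none of the 11 passed.

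Of 20 miRNAs tied to cholesterol and lipid handling, 10 rose in 6 weeks against 1 week, 4 fell and 6 did not pass, with a median of 0.72 against 0.12. In all 14 of 20 passed, a share close to the 71.9% of all tested entries. miR-378a-3p (2.30 ± 0.20) and miR-27b-3p (2.02 ± 0.15) were the largest rises. miR-20b-5p (-2.83 ± 0.60) and miR-223-3p (-2.30 ± 0.22), a myeloid miRNA, were the largest falls. Scaled by library total only, 5 of the 20 rose and 5 fell, where 88 of 391 tested entries rose and 178 fell. In 14 months against 6 weeks miR-182-5p rose (0.77 ± 0.22, edgeR's quasi-likelihood test, adjusted p = 0.0445), and the other 19 did not pass. Of all tested entries 3.84% passed there and 3.32% were higher, close to 1 of 20. Under each of the other 3 scalings none of the 20 passed.

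The miR-130 and miR-301 group has the seed AGUGCAA, which is the family's seed moved by 1 base, and 3 of its miRNAs were tested. In 6 weeks against 1 week miR-130b-3p fell by 1.68 on the log2 scale (edgeR's quasi-likelihood test, adjusted p = 0.00440). It had 441 counts over the 25 libraries. In the same test miR-130a-3p (0.44, adjusted p = 0.0606) and miR-301a-3p (-0.36, adjusted p = 0.311) did not pass. Of all tested entries 71.9% passed in this comparison and 36.8% fell, so 1 call of 3 is not particular to the group. None of the 3 passed in 14 months against 6 weeks.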

How the data were processed

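Small RNA of liver vesicles was sequenced from 25 mice with a QIAseq miRNA kit as paired-end reads on a NovaSeq platform, per the labels' protocols. Bowtie, edgeR and the mm10 build are named in the submitters' processing notes, with no versions or roles. The authors deposited raw counts per miRNA for each library, whole numbers with no normalization, beside a length for each entry that was not used, and whether reads or molecular tags were counted is not given in the sources used here. Of the 1493 entries, 1095 carry mouse miRNA names and 398 are marked unconservative, which hold 0.0836% of counts. All 25 library columns were used.

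The counts were fitted with edgeR 4.0.16 (R 4.3.3): TMM scaling, filterByExpr by age (391 entries kept), glmQLFit with robust spread and glmQLFTest over all 25 libraries, with Benjamini-Hochberg adjustment over tested entries in each comparison and a threshold of 0.05. Standard errors were derived from the F statistic as the size of the fold change (log2) divided by its root. The biological coefficient of variation was 37.6%. The fit was tested on simulated counts. Ratios within a library used counts plus 0.5 and a two-sided exact permutation test over 252 splits (scipy 1.17.1), adjusted over 20 tests. For correlations log2 CPM had a prior count of 2. Alternatives used DESeq2 1.42.0, limma 3.58.1, other scalings, filters and covariates, and left out each library in turn. With 5 mice an age, edgeR's p-values set a difference between ages against the spread between mice, estimated over all 25 libraries and partly shared between entries. The p-values of the depth relations come from permuting the 20 adult libraries across ages, so they mix differences between ages with the spread between mice. Intervals and floors (3 counts) cover counting error only. No 2 libraries of an age had identical counts.

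Members and lists were chosen with earlier results of these data known, so no list is independent support. The text names the 4 members, the other arms of their precursors, miRNAs with the same seed, the 3 entries most like each member and up to 4 of the largest called changes of each list. The miR-130 and miR-301 group, list counts under other scalings and markers that moved were named outside that rule, after their values were seen.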

Additional observations from a re-analysis of the deposited data

Results flagged for a closer look

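The log2 ratio of miR-152-3p to miR-148b-3p at 12 months was 0.74 in mouse 16 and lay far below the other 12-month mice, which had 0.97 to 1.04. Its gap to the nearest of them was 0.75 of the group's whole range. This was 1 of 50 groups of 5 libraries examined in this way, of which chance marks about 1 in 20. The count of miR-152-3p in that library was 2561 and that of miR-148b-3p was 1536.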

How the results depend on the processing

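No paired analysis was possible because no mouse number occurs at more than 1 age. In 6 weeks against 1 week, miR-148a-3p (0.67 with TMM) was 0.21 with DESeq2 size factors, 0.015 with library totals alone, -0.10 with library totals that leave out miR-122-5p, 0.39 without a filter (adjusted p = 0.113) and 0.21 in the DESeq2 test, and none of these passed. Its adjusted p over the 5 ages was 0.212, 0.512 and 0.118 under those 3 scalings and 0.248 in the DESeq2 test. Against 1 week it turned sign at 6 months (-0.076 with library totals alone, -0.25 without miR-122-5p), at 12 months (-0.15 without miR-122-5p) and at 14 months (-0.15 and -0.27). The median of all tested entries moved with these scalings, as the report gives. For miR-148b-3p, 6 weeks against 1 week was -0.080 with log2 library total as a covariate and -0.86, -1.06 and -1.17 under the 3 scalings. Its adjusted p over the 5 ages was 6.64e-05, 2.44e-08 and 2.18e-11 under the 3 scalings and 3.62e-08 in the DESeq2 test. For miR-152-3p, 14 months against 6 weeks was 0.32 with library totals alone, 0.33 (adjusted p = 0.101) without miR-122-5p and 0.28 with the covariate, and the adjusted p over the adult ages was 0.00952 in the DESeq2 test. The correlation with depth was 0.025 for miR-148a-3p and 0.35 for miR-148b-3p with library totals alone. The cause of these differences was not tested. With 1 library left out, miR-148b-3p in 6 weeks against 1 week ran between -0.45 and -0.31, miR-152-3p in 14 months against 6 weeks between 0.54 and 0.69 and its adjusted p over the adult ages between 0.0260 and 0.169. In 14 months against 1 week miR-152-3p was -0.39 (adjusted p = 0.0613) without the 1-week mouse 5. In the fit of only the 2 ages compared, miR-148a-5p was left out by the filter in 6 weeks against 1 week. Ratios computed with 1 or 5 counts added kept their side of the threshold, as they did with each library left out, where 4 against 5 libraries allow no p under 0.0159. Counts of called entries differed by over 1.5 times in 6 comparisons. For 6 months against 6 weeks there were 7, and 3 with library totals, 4 without miR-122-5p, 3 with the covariate and 1 to 13 with 1 library left out. For 12 months against 6 months there were 0, and 3 without a filter. For 14 months against 6 months there were 0, and 1 with the covariate and 1 without the 1-week mouse 27. For 12 months against 6 weeks there were 22, and 36 with DESeq2, 8 with the covariate, 36 with only the 2 ages fitted and 15 to 37 with 1 library left out. For 14 months against 6 weeks there were 15, and 24 without a filter, 7 with the covariate, 28 with only the 2 ages fitted and 8 to 22 with 1 library left out. Over the adult ages there were 10, and 25 without a filter, 25 with DESeq2, 5 with the covariate and 9 to 22 with 1 library left out. Depth limits miR-148a-5p most, with 1 to 29 counts a library.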
